A study of Mus musculus with 2 samples.

Results

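The Mir379 to Mir410 cluster is a run of microRNA genes at the distal end of the imprinted Dlk1-Dio3 domain of the mouse, on the plus strand of chromosome 12. Its members were 32 gene symbols, from Mir379 to Mir410, fixed by name and ordered by start coordinate, among the 2202 genes counted. All 32 were found in the GENCODE M21 annotation. They were measured by microRNA-seq, with total RNA and inserts under 30 bases, in the hippocampus of male B6CASTF1/J mice. This strain is the F1 cross of C57BL/6J and CAST/EiJ. The tissue type of both libraries is labelled layer of hippocampus. The animals were 25 days old, an age around weaning, and carried no stated treatment or engineered allele. The 2 libraries, called replicate 1 and replicate 2, form 1 group. They have separate biosample entries but 1 common donor entry, so the labels do not settle whether they came from separate animals. With 1 group there was no comparison of conditions, and the results below are the members' levels, their order, their sequences and the differences between these 2 libraries.

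MicroRNAs are cut from hairpin precursors by Drosha and then Dicer, and 1 of the resulting arms, 5p or 3p, is loaded into an Argonaute protein, where the seed at bases 2 to 8 pairs with target messenger RNAs. In the Dlk1-Dio3 domain the noncoding genes, among them Meg3, Rian and Mirg, are expressed from the maternal chromosome, and Dlk1, Rtl1 and Dio3 from the paternal one. The Mir379 to Mir410 hairpins are processed from long noncoding RNA of the maternal chromosome, are most abundant in brain, and in cultured neurons their transcription is raised by activity through Mef2. The deposited counts are per gene, so they separate neither the 2 arms of a hairpin nor the 2 parental alleles.

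RefSeq (GRCm38.p6) gave 60 mature arms for the 32 members, of which 28 had both arms. The other 4 had 1 arm only. The 3p arms of Mir376c, Mir487b and Mir539 and the 5p arm of Mir485 were not held and not compared. The 60 arms held 56 distinct seeds, so by these arms most members could not be grouped with another by seed. In 12 of the 60, the seed was also that of a miRNA that is not a member. The arms below are those of the 4 seeds that occur in more than 1 member among these 60 arms. They are written 5′ to 3′ with the seed in capitals, and they show which of the arms held read the same target bases.
mmu-miR-379-5p: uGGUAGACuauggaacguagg
mmu-miR-1193-5p: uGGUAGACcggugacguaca
mmu-miR-379-3p: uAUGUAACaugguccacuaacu
mmu-miR-411-3p: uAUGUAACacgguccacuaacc
mmu-miR-494-5p: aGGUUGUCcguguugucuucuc
mmu-miR-410-5p: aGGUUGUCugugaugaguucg
mmu-miR-376c-5p: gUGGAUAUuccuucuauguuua
mmu-miR-376b-5p: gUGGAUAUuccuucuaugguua
Among the arms held, the 4 pairs join 7 members, with Mir379 in both the first and the second. After the seed, the arms of the Mir376 pair and of the pair of Mir379 and Mir411 3p arms are also close to each other, and those of the other pairs are not.

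A second set of arms shows, first, close relatives that do not share a seed, then the 5p arms of the 3 most abundant members, and last that of Mir134, the member best known from dendrites. The 3p arms of Mir300 and Mir381 share a run of 16 bases that starts within the seed, while the seeds themselves differ.
mmu-miR-300-3p: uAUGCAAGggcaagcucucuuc
mmu-miR-381-3p: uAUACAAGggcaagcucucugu
mmu-miR-543-3p: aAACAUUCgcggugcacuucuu
mmu-miR-495-3p: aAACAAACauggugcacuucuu
mmu-miR-487b-5p: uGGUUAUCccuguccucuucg
mmu-miR-382-5p: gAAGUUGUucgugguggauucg
mmu-miR-541-5p: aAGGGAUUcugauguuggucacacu
mmu-miR-134-5p: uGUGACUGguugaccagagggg
None of the 60 mature arms was identical to one of a miRNA elsewhere, and each lay inside the gene that was counted.

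The libraries held 5183641 and 5871233 gene-assigned counts, 37.3% and 36.7% of all reads, while reads that aligned to several places made up 43.6% and 43.2%. Levels are given as CPM, counts scaled to a gene-assigned total of 1000000. Where a gene had no count, its level could still be as high as 0.579 CPM (replicate 1) or 0.511 CPM (replicate 2) by counting error. Mir132, a neuronal miRNA, stood at 14669 and 19562 CPM, and 8 of 11 neuron markers reached 10 counts in each library. Of the 3 that missed it, 2 are genes of miR-124, the defining neuronal miRNA, and 1 is Mir9-2, with 4 and 11 counts. The 3 genes of miR-124 had 16 and 12, 0 and 1, and 2 and 9 counts. Mir9-1 had 71 and 68 counts, and Mir9-3 had 549 and 388. Of the 11 markers, 6 had means under 100 CPM, so the label of nervous tissue rests here on the 5 with at least 1000 CPM. The 3 genes of miR-124 make the same mature miRNA, and reads aligned to several places are in no gene's count. The part of such reads in their low counts was not tested. The 2 oligodendrocyte and 2 vessel markers were detected, and 3 blood markers together held 0.00419% and 0.00569% of the counts. Of 4 liver and muscle markers, 1 was detected, Mir122, with 20.4 and 36.1 CPM. Its mean of 28.3 CPM was near the 28.2 CPM of Mir494, the lowest member.

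Every one of the 32 members reached 10 counts in each library and was called detected, against 20.2% of all 2202 genes. Of those 2202, 1401 had 0 counts in both libraries. The members were chosen with earlier results of these data known, so their full detection is only a description. Of 6 other miRNA genes on the plus strand of the interval, 2 were detected. The lowest count of any member was 138, for Mir494 in replicate 2. The cluster took 369669 of the counts in replicate 1, or 7.13% (exact 95% interval 7.11% to 7.15%), and 449898 in replicate 2, or 7.66% (7.64% to 7.68%). The mean share was 7.40% ± 0.376 (SD, n = 2), and the intervals cover counting error only. The median member stood at 637 CPM, while the median over the 445 detected genes was 51.2 CPM. Both medians leave out reads aligned to several places, and how such reads would change them was not tested. In tissue that holds several cell types, fewer cells of a type and less RNA per cell cannot be told apart in any of these levels. CPM was not divided by gene length, because mature miRNAs are of nearly equal length.

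**Figure D1:**
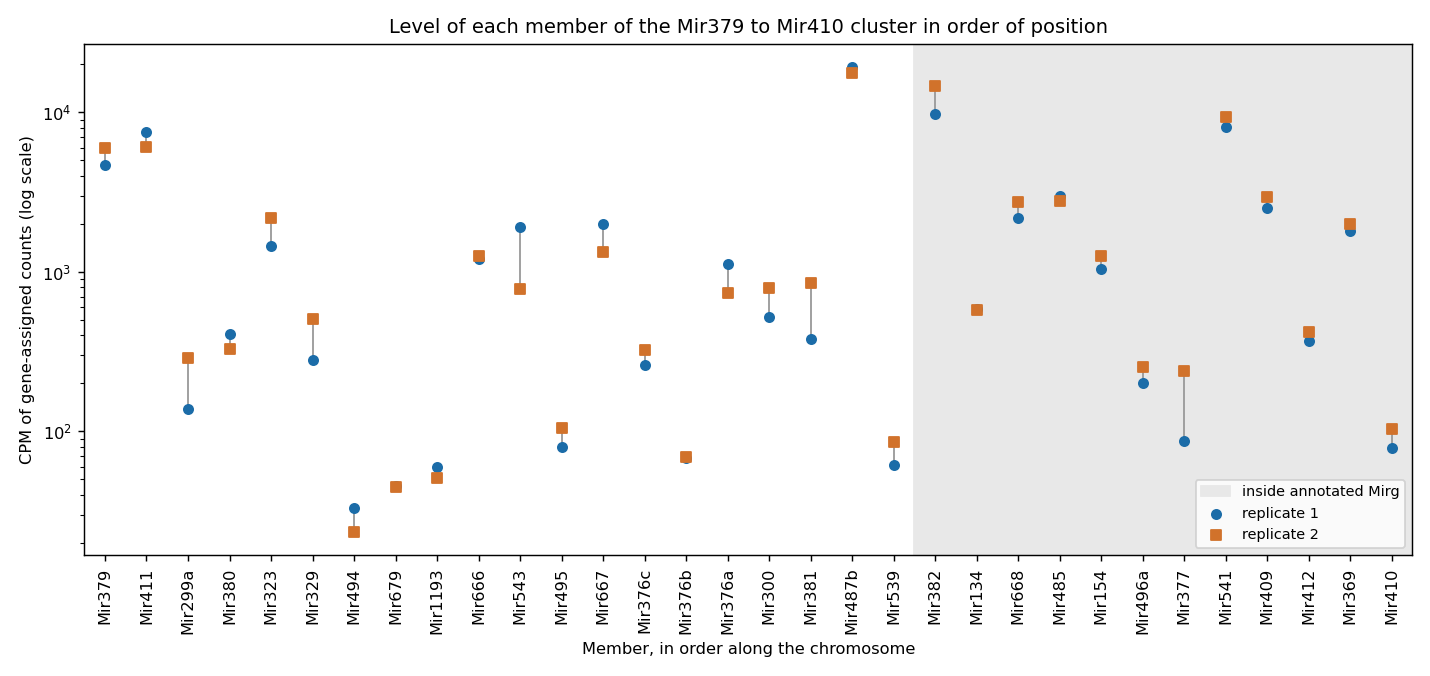
Level of each of the 32 members in CPM (log scale) in replicate 1 and replicate 2, in order of start coordinate. The members run from 28.2 CPM for Mir494 to 18402 CPM for Mir487b on average, and high and low members are interspersed along the cluster.

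Levels within the cluster spanned a 651-fold range. Means of at least 1000 CPM were reached by 14 members, 11 lay between 100 and 1000 CPM, and 7 lay under 100 CPM. Among all genes the members ranked from 13 to 255 by gene-assigned counts, with 3 of them among the 25 most abundant. Reads aligned to several places are in no gene's count, and how they would change these ranks was not tested. Mir487b, the highest, stood at 19201 CPM in replicate 1 and 17603 CPM in replicate 2, a mean of 18402 ± 1130 (SD, n = 2). It alone supplied 26.9% and 23.0% of the counts of the cluster. Mir382 followed with 9840 and 14580 CPM (12210 ± 3351), and then Mir541 with 8135 and 9359 CPM (8747 ± 865). Replicate 1 was the higher library for Mir487b and the lower for both others. Mir411 reached 7555 and 6071 CPM (6813 ± 1049). Mir379, the first hairpin of the cluster, reached 4695 and 5949 CPM (5322 ± 887). These 5 genes were in the same order in both libraries, although the gap of 1490 CPM between Mir411 and Mir379 was smaller than its SD of 1936. Together they held 69.3% and 69.9% of the cluster's counts, and the 16 lowest members held 4.40% and 5.58%.

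**Figure D2:**
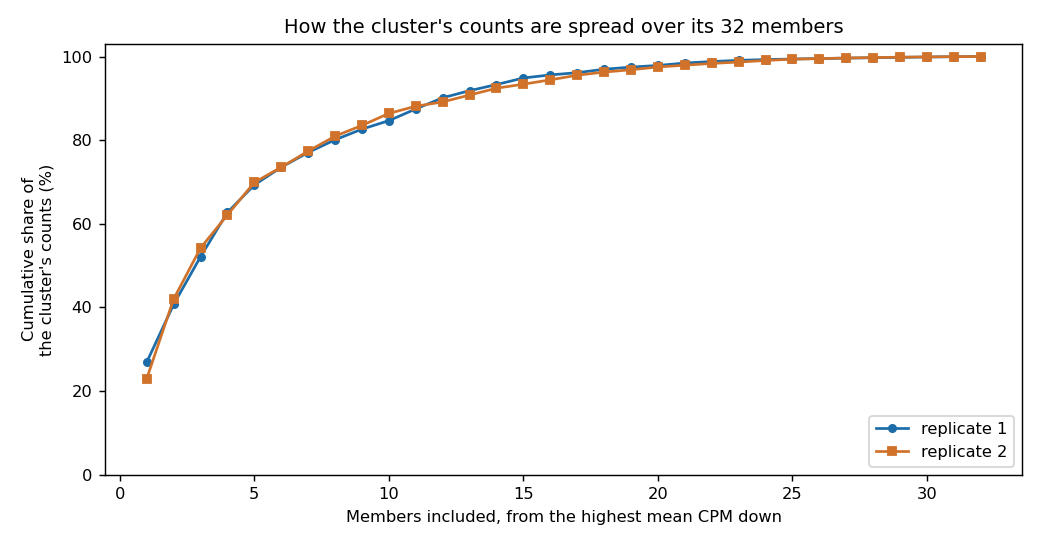
Cumulative share of the cluster's counts (%) against the number of members included, from the highest mean CPM down, for each library. The curves pass 69.3% and 69.9% at 5 members.

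The next members in rank were Mir485, Mir409, Mir668 and Mir369. Mir485, a miRNA that restrains synapses and targets the synaptic vesicle protein SV2A, stood at 3006 and 2788 CPM (2897 ± 154, SD, n = 2). Mir409 had 2519 and 2949 CPM (2734 ± 304), and Mir668 had 2165 and 2730 CPM (2447 ± 400). Mir369, which has been studied in the timing of neurogenesis together with Mir496a and Mir543, stood at 1815 and 1985 CPM (1900 ± 120). The 2 others of that trio had lower means and were less alike in the libraries. Mir543 had 1907 and 783 CPM (1345 ± 794), so that it was above Mir369 in replicate 1 and below it in replicate 2, and Mir496a had 202 and 252 CPM (227 ± 35.4). Mir323 completed the 10 highest with 1452 and 2187 CPM (1820 ± 520).

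The members best known from dendrites were of middle rank. Mir134 is found in dendrites, where it represses the kinase Limk1 and limits spine size. It stood at 584 and 576 CPM, a mean of 580 ± 5.36 (SD, n = 2), the smallest relative spread of all members at 0.924% of the mean. Mir329 and Mir381, which act with Mir134 in activity-dependent dendrite growth, were both higher in replicate 2. Mir329 had 282 and 507 CPM (395 ± 159), and Mir381 had 382 and 848 CPM (615 ± 330). Mir495, which targets the neurotrophin Bdnf, had only 79.5 and 105 CPM (92.2 ± 17.99), although its 3p arm ends like that of Mir543. The ratio of Mir543 to Mir495 was 24.0 in replicate 1 and 7.47 in replicate 2.

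The 3 Mir376 hairpins are known for adenosine-to-inosine editing in brain, which changes their seeds. They differed in level. Mir376a had 1121 and 738 CPM (930 ± 271, SD, n = 2), Mir376c had 260 and 326 CPM (293 ± 46.7), and Mir376b had 68.3 and 69.5 CPM (68.9 ± 0.848). Mir376a was thus 16.4 and 10.6 times Mir376b within each library, and Mir376c 3.80 and 4.69 times. Edited reads carry a base that is not in the genome, and how the authors' alignment treated such reads is not given in the sources used here.

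Members that share a seed differed in level by widely unequal amounts. In the pair of 5p arms of Mir379 and Mir1193, Mir379 was 78.0 and 116 times as abundant as Mir1193, which had 60.2 and 51.3 CPM (55.7 ± 6.31, SD, n = 2). In the pair of Mir494 and Mir410 both genes were low, with Mir494 at 33.0 and 23.5 CPM (28.2 ± 6.71) and Mir410 at 78.1 and 104 CPM (91.2 ± 18.5). The pair of Mir379 and Mir411 was the one with 2 abundant members. They added up to 12250 and 12020 CPM, but how much of this came from the 3p arms that share the seed was not measured. The lowest members after Mir494 were Mir679, with 45.5 and 44.6 CPM (45.1 ± 0.639), and Mir1193.

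Other members lay between these extremes. Mir666 had 1211 and 1264 CPM (1237 ± 37.0, SD, n = 2) and Mir154, which gives its name to a family of related hairpins in the cluster, had 1042 and 1251 CPM (1147 ± 148). Mir300, the relative of Mir381, had 523 and 794 CPM (659 ± 192). Mir412 stood at 368 and 422 CPM (395 ± 38.2), Mir380 at 406 and 328 CPM (367 ± 55.3), and Mir539 at 61.2 and 85.8 CPM (73.5 ± 17.5). Of these 6, Mir380 alone had the lower CPM in replicate 2, although Mir666 was also lower there under TMM and DESeq2 scaling.

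The order of the levels was only partly stable. Of the 31 pairs of members at neighbouring ranks, 19 were in the same order in both libraries, and in 14 the gap of the means was larger than its SD over the 2 libraries. The SD was 16.1% of the mean for the median member and at most 65.8%, for Mir377. Across the 32 genes, which are not independent replicates, log2 CPM in the 2 libraries gave Pearson's r of 0.977 and Spearman's rho of 0.979.

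The 32 genes spanned 34736 bases, from the start of Mir379 (chromosome 12, 109709060 to 109709125, mm10) to the end of Mir410 (109743715 to 109743795). Hairpin genes were 61 to 121 bases long, with gaps of 20 to 5568 bases and a median gap of 654. The cluster is often described as lying in the noncoding RNA Mirg, but in GENCODE M21 the Mirg gene starts 20704 bases after Mir379 (109729764 to 109749460). By that annotation 20 members, Mir379 to Mir539, were upstream of Mirg and 12, Mir382 to Mir410, were inside it. Of these 12, Mir134, Mir485, Mir377 and Mir410 lay in exons of annotated transcripts, Mir382, Mir668, Mir412 and Mir369 lay partly in exons, and Mir154, Mir496a, Mir541 and Mir409 were intronic.

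**Figure D3:**
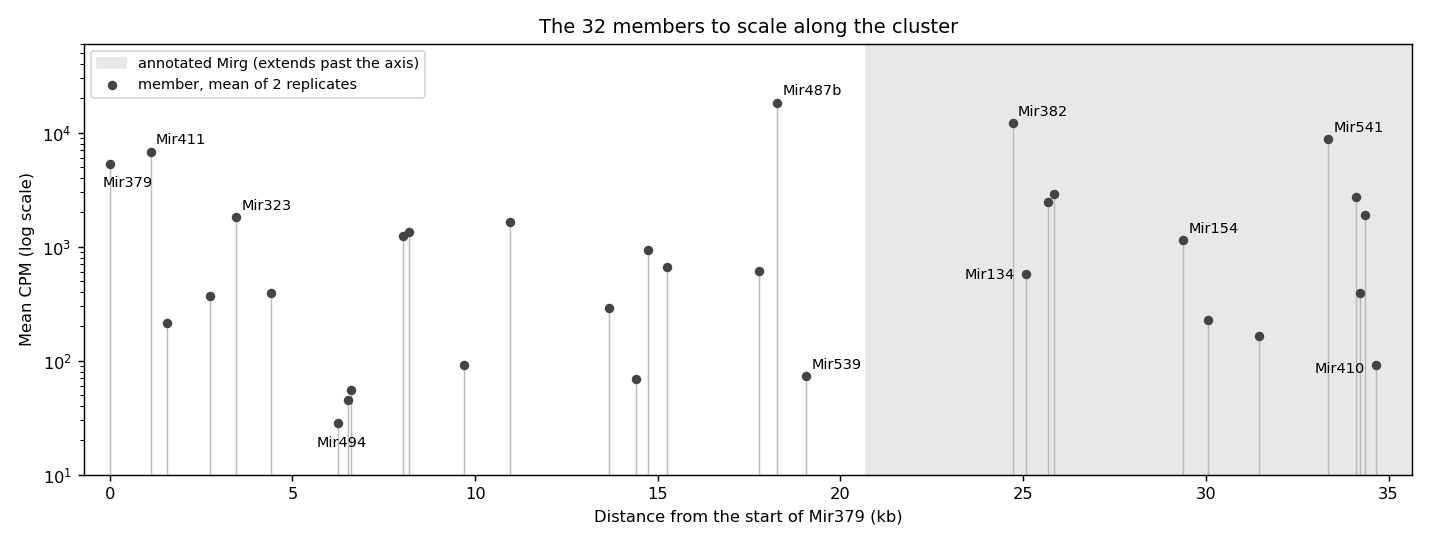
Mean CPM of the 2 replicates (log scale) against distance from the start of Mir379 in kilobases, with the annotated Mirg gene shaded and thin lines dropped to the axis to show position. The 5 highest members sit at the start (Mir379, Mir411), near the middle (Mir487b) and within Mirg (Mir382, Mir541).

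High members were spread along the run rather than gathered at an end. The 20 upstream members held 58.2% and 51.4% of the cluster's counts, 54.8% ± 4.77 (SD, n = 2), and the 12 inside Mirg held 41.8% and 48.6%. Levels of members next to each other differed by a median of 4.96-fold over 31 pairs, beside 5.93-fold over all 496 pairs of members. Order along the chromosome and log2 level had r of 0.16 and rho of 0.14 over the 32 genes, as a description. For GC content of the gene, which ran from 29.1% to 64.6%, r with level was 0.29 and rho was 0.34. All points of these correlations share the same 2 libraries. Neighbouring hairpins could be far apart: Mir369 was 23.2 and 19.0 times Mir410, which is the next gene. Mir541, Mir409, Mir412 and Mir369 lie close together and kept near-constant proportions, with Mir541 at 3.23 and 3.17 times Mir409 and Mir409 at 6.84 and 6.98 times Mir412. These pairs were chosen after their values were seen.

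Reads came from the members' own strand. The column for the opposite strand held 0 counts for the 32 genes in both libraries. There are 5 annotated miRNA genes on the minus strand over members: Mir299b over Mir299a, Gm25750 over Mir380, Gm25252 over Mir376a, Gm44322 over Mir539 and Gm24321 over Mir409. On their own strand these had 0 counts in each library. The overlap matters for counting that ignores strand: there those 5 members, which held 5.95% and 5.73% of the cluster's counts, lost nearly all reads, and 27 of 32 members were detected. Another 6 miRNA genes on the plus strand lie in the interval but are not members, and they added only 81 and 102 counts. The highest of them, Mir758, had 9.65 and 9.88 CPM. Mir544 had 13 and 28 counts, Gm27379 had 11 and 8, Mir1197 had 7 and 8, and Mir654 and Mir453 had 0 in both.

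The libraries differed in most members by more than read sampling allows. By an exact binomial test per gene with Benjamini-Hochberg adjustment over 472 genes, 28 of 32 members differed, where 59.7% of all genes tested did so. A call depends on the count, and every member had a mean count of at least 100. Among the 291 genes at that depth 83.2% were called, close to the members' share. Called higher in replicate 2 were 39.4% of all genes tested and 55% of the 291, and higher in replicate 1 were 20.3% and 28.2%. As a share of called genes only, 66.0% were higher in replicate 2, and 66.1% among those called of the 291. Of the 28 members called, 20 (71.4%) were higher in replicate 2 and 8 in replicate 1, close to those shares. The split rests on the scaling: with TMM it was 17 to 11, and with DESeq2 size factors 17 to 12, while over all genes tested 186 and 96 became 151 and 124 with TMM and 138 and 139 with DESeq2. These scalings lower every log2 ratio by 0.14 and 0.18. The test sets 1 library against the other and carries no estimate of the spread between animals, so it says only that these 2 libraries differ.

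The differences of the members were close in size to those over all genes tested. The median log2 ratio of replicate 2 over replicate 1 was 0.21 over the members and 0.16 over all 472 genes tested, and the median without sign was 0.33 over the members beside 0.34 over 291 genes whose counts averaged 100 or more. Within 1.5-fold lay 23 of 32 members (71.9%) and 212 of the 291 genes (72.9%). A difference of at least 2-fold was seen in 4 members, beside 11.7% of the 291 genes. Mir377 had 453 and 1405 counts, or 87.4 and 239 CPM (163 ± 107, SD, n = 2), a ratio of 2.74 (exact 95% interval 2.46 to 3.05). Mir381 was higher in replicate 2 by a ratio of 2.22 (2.11 to 2.34), and Mir299a, at 139 and 290 CPM (214 ± 107), by 2.09 (1.92 to 2.29). Mir543 went the other way, with 9884 and 4599 counts and a level in replicate 1 that was 2.43 times that in replicate 2 (2.35 to 2.52). All 4 kept their direction under each scaling, but under TMM Mir299a fell below 2-fold and under DESeq2 Mir299a and Mir381 did, which leaves 3 and 2 members, beside 29 and 27 of the 291 genes.

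**Figure D4:**
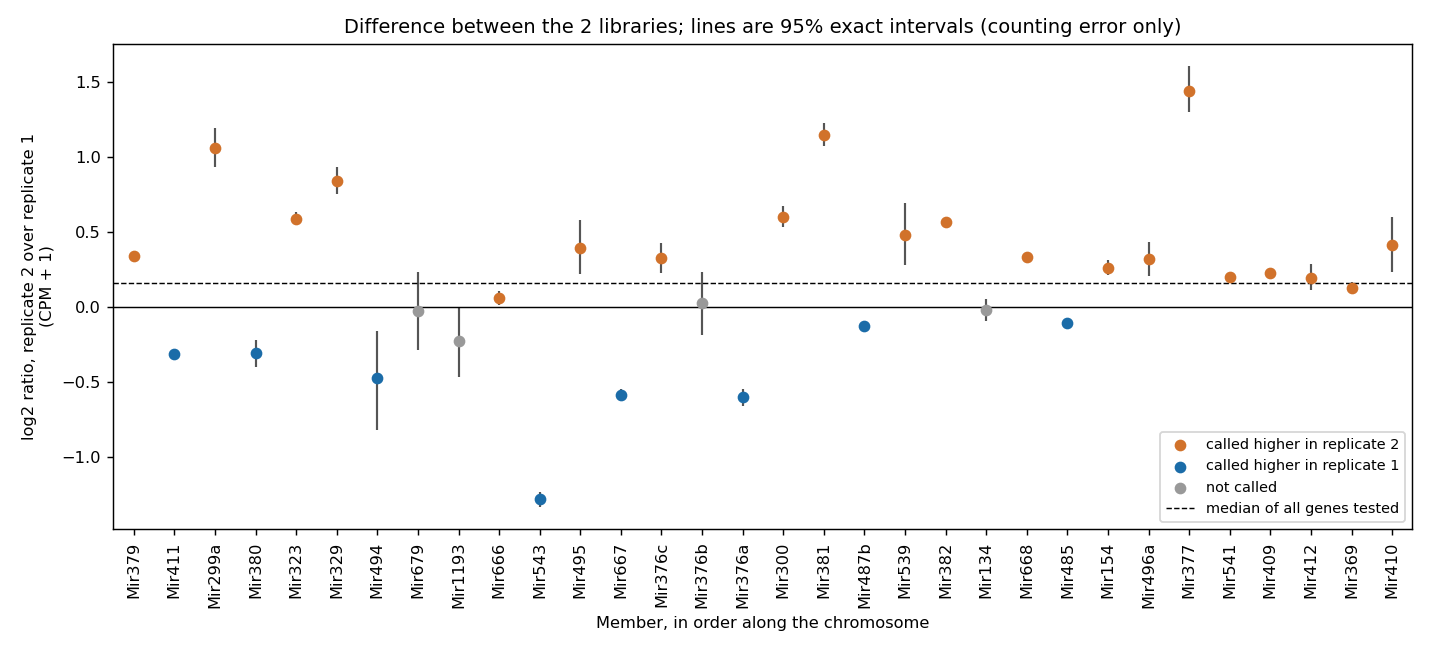
log2 ratio of replicate 2 over replicate 1 for each member in order of start coordinate. Mir377, Mir381 and Mir299a lie above a ratio of 2-fold, Mir543 lies below it in the other direction, and the median of the members is 0.21.

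After these, the members with the most negative log2 ratios were Mir376a at −0.60 and Mir667 at −0.59, the latter with 1991 and 1325 CPM (1658 ± 471, SD, n = 2), and Mir494 at −0.47. The fourth most positive was Mir329 at 0.84 (adjusted p = 1.3e-78, exact binomial test). The 4 members that did not pass the test were Mir679 (log2 ratio −0.03), Mir376b (0.02), Mir134 (−0.02) and Mir1193 (−0.23), with exact binomial adjusted p of 0.89, 0.89, 0.71 and 0.078. Under TMM and DESeq2 scaling Mir134 and Mir1193 were lower in replicate 2 and passed, while Mir412, at 0.20, no longer passed. Mir369, higher in replicate 2 at 0.13, no longer passed under TMM (adjusted p = 0.77, exact binomial test) and passed in the other direction under DESeq2 (adjusted p = 0.037). Mir666, higher in replicate 2 at 0.06, passed in the other direction under both (adjusted p = 0.0045 and 1.1e-05).

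Some neighbouring genes had like ratios and others did not. Mir541, Mir409, Mir412 and Mir369 had log2 ratios of 0.20, 0.23, 0.20 and 0.13, near the median of 0.16 over all 472 genes tested. Under DESeq2 scaling these became 0.027, 0.052, 0.022 and −0.046. The genes were chosen after their values were seen. The median difference in log2 ratio was 0.59 between members next to each other and 0.50 over all pairs of members. Mir666 and Mir543, which are next to each other, changed order: the ratio of Mir666 to Mir543 was 0.635 in replicate 1 and 1.61 in replicate 2. This ratio is taken within a library and does not depend on scaling. Likewise Mir487b was 1.95 and 1.21 times Mir382, and Mir381 was 0.730 and 1.07 times Mir300. Of the 20 members upstream of Mirg, 10 were higher in replicate 2 and 7 in replicate 1, and these became 9 and 9 under both TMM and DESeq2 scaling. Their median log2 ratio of 0.04 became −0.09 under TMM and −0.13 under DESeq2. Of the 12 inside Mirg, 10 were higher in replicate 2 and 1, Mir485, was lower, and these became 8 and 2 under TMM and 8 and 3 under DESeq2. Their median of 0.25 became 0.11 and 0.07. Over the 291 genes of like depth, 55% were higher in replicate 2 and 28.2% in replicate 1. The difference between the 2 stretches was not tested.

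The hairpins resemble each other in sequence, which bears on how reads could be assigned. A stretch of at least 20 bases shared with another miRNA gene was found in 4 members. Mir376c and Mir376b share 31 bases, which cover 18 of the 22 bases of each 5p arm. Mir411 shares 21 bases with Mir758, of which 12 fall in its 3p arm and 0 in its 5p arm. Mir487b shares 20 bases with Mir376b, bases 63 to 82 of its 82-base hairpin, none of them in its 5p arm, and its 3p arm was not analysed here. How many reads fit both genes of such a pair was not measured, so the levels of these 4 members, with Mir487b the highest of all, are uncertain to that extent.

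Short words recur in the mature arms. The arms below carry ACACG, here with the seed in capitals, and they show that the word runs across the end of the seed in the first 3 and follows it in the last.
mmu-miR-323-3p: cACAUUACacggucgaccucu
mmu-miR-485-3p: aGUCAUACacggcucuccucuc
mmu-miR-154-3p: aAUCAUACacgguugaccuauu
mmu-miR-494-3p: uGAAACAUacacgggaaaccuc
Read on the mature strand only, ACACG was in 5 of 29 3p arms of the cluster (17.2%), the 4 above and that of Mir411, and in 1 of 702 3p arms of other miRNAs (0.142%). The overlapping word CACGG was in 6 of 29 (20.7%) and 6 of 702 (0.855%). In 5p arms, AGGUU was in 9 of 31 (29.0%) and 24 of 696 (3.45%). The words were chosen after counting, and related hairpins share descent, so these shares are a description. The 5 genes with ACACG ranged from Mir494, the lowest member, to Mir411, the fourth highest.

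The other miRNA genes of the domain gave a measure of scale. Of 7 miRNA genes listed with those antisense to Rtl1, 5 were detected. They held 10.3% and 7.28% of all counts, 8.80% ± 2.16 (SD, n = 2), most of it from Mir127 at 82528 and 49054 CPM. Among the 7, Mir3071 is annotated on the minus strand, unlike Mir127, and had 0 counts in each library. Of 9 matched miRNA genes of Meg3 and Rian, all 9 were detected and held 3.10% and 2.92%, with Mir770 the highest at 22960 and 20419 CPM. The cluster's share of 7.40% ± 0.376 lay between these means and came from more genes, but the order was not the same in the libraries: in replicate 2 the cluster's 7.66% was the highest of the 3 shares. The share antisense to Rtl1 was higher in replicate 1 and that of the Mir379 to Mir410 cluster higher in replicate 2. With 1 library on each side, this contrast was not tested.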

How the data were processed

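The authors deposited 1 count table per library, with whole-number read counts per miRNA gene in 3 columns (strand ignored, strand of the gene, opposite strand) on mm10, per the labels. Which aligner and counter made them is not given in the sources used here. Counts on the strand of the gene were used. The rows without a gene (62.7% and 63.3% of reads) were left out, and CPM was taken over gene counts. Gene names, positions and Mirg came from GENCODE M21, and sequences from RefSeq (GRCm38.p6).

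Libraries were compared by an exact two-sided binomial test (scipy 1.17.1) for genes whose counts averaged 10 or more, with Benjamini-Hochberg adjustment over all of them and a threshold of 0.05. The test was checked on simulated counts that held read sampling only, so that check does not cover any further spread between libraries. log2 ratios used CPM plus a pseudocount of 1. edgeR 4.0.16 gave TMM factors and DESeq2 1.42.0 gave size factors, as alternatives (R 4.3.3). Alternatives in strand column, filter, denominator and pseudocount were also tried. The members and lists were chosen with earlier results of these data known. Any member could be named, with full values for the 10 highest, the 4 highest and 4 lowest log2 ratios, the first and last gene, and members that share a seed.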

Additional observations from a re-analysis of the deposited data

How the results depend on the processing

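The cluster's share of 7.40% was 3.40% with multiply aligned reads in the denominator and 16.3% without the 10 most abundant other genes. It was 4.84% without the 4 members that share at least 18 or 20 bases with another miRNA gene. For Mir376c, Mir376b and Mir487b that gene is another member, and for Mir411 it is Mir758, which lies in the interval. Without Mir487b, an alternative chosen after seeing the data, the share was 5.56%. Without replicate 1 or replicate 2 it ran from 7.13% to 7.66%, the share of the 5 highest members from 69.3% to 69.9%, and the members detected stayed at 32. With strand ignored, 27 members were detected and the 5 highest held 73.9%. At 22 bases, 2 members shared a stretch. With differences of at least 1.5-fold only, also chosen after seeing the data, 9 members differed between the libraries in place of 28. The median log2 ratio of 0.21 was 0.078 under TMM and 0.039 under DESeq2. Under those scalings the log2 ratio changed sign for Mir666 (−0.076 and −0.11), Mir376b (−0.11 and −0.15) and Mir369 (−0.0081 and −0.046). Direction and call were the same for 26 of 32 members under each scaling, and for all 32 with a mean count of 100 or no filter. No paired analysis was possible because there is 1 group. With 2 libraries, no value here carries a test of the spread between animals.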
